A study of Homo sapiens with 18 samples.

Results

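Sprouty proteins, SPRED proteins and dual-specificity phosphatases (DUSPs) restrain the Ras and ERK pathway or the stress kinases JNK and p38. Several of them are induced by ERK itself. Here 10 of their genes were followed across 18 RNA libraries of starved and fed HAP1 cells. The genes were chosen by name, with earlier results of these data known: SPRY1, SPRY2, SPRY4, SPRED1, SPRED2, DUSP1, DUSP4, DUSP5, DUSP6 and DUSP10. Counts of them set beside shares of all tested genes are therefore descriptions, and so are those of the gene lists below. They are 10 of the 63677 gene identifiers counted, and all 10 passed the filter on low counts that left 15179 genes for testing. SPRY4 did so only through the groups where it was higher, as given below. HAP1 is a near-haploid human cell line that came from a chronic myeloid leukaemia culture and grows attached to the dish. The groups were ATG7KO cells kept for 6 h in EBSS (the balanced salts of Earle), ATG7KO cells in full medium, RB1CC1KO cells after EBSS, RB1CC1KO cells in full medium, WT (parental) cells after EBSS and WT cells in full medium, with 3 libraries in each. EBSS holds glucose and salts and lacks serum and amino acids, while the full medium was Iscove's medium with 10% heat-inactivated fetal calf serum and antibiotics. ATG7 activates the ubiquitin-like proteins of autophagy, and RB1CC1 (FIP200) is a scaffold of the kinase complex that starts it. Each genotype was 1 cell line, so what a knockout does and what sets 1 line apart from another cannot be told apart.

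In the pathway that most of these genes restrain, a growth factor receptor loads Ras with GTP, Ras recruits RAF, RAF activates MEK, and MEK phosphorylates ERK. Active ERK switches on transcription of its own inhibitors. Sprouty proteins act near the receptors and RAF, SPRED proteins bring the Ras GTPase-activating protein neurofibromin to the membrane, and DUSPs remove the phosphates from ERK, JNK or p38. DUSP6 acts on ERK in the cytoplasm, DUSP5 on ERK in the nucleus, DUSP1 and DUSP4 are nuclear with broader targets, and DUSP10 prefers JNK and p38. RNA levels of SPRY4 and DUSP6 are often read as a sign of ERK output, although ERK phosphorylation itself was not measured here.

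The promoters of 8 of the 10 genes, in 13 windows running from 250 bases before to 50 bases after a RefSeq transcription start, were searched on both strands for 5 motifs of growth factor, stress and amino acid signalling. These were the full cyclic AMP response element (CRE) TGACGTCA, the AP-1 site TGANTCA, the amino acid response element TGATGNAA, the forkhead element TGTTTAC and the CArG box. A match was found in 2 of the 13 windows, and no matches overlapped. The share of all windows with a match to any of the 5 motifs was not computed, so this count does not set these genes apart. Shares for single motifs are given next. The full CRE lay in the DUSP1 window, starting 125 bases before the start site, and in 1.85% of all 35116 RefSeq windows of this length. The window at the downstream start of SPRED2 held 2 AP-1 matches and 1 amino acid response element, motifs present in 7.71% and 3.62% of all windows. The CArG box (1.29% of all windows) and the forkhead element (3.42%) matched no window of these genes. 4 windows are shown, in RefSeq sequence of GRCh38.p14 and written 5′ to 3′ along the gene's strand, which was minus in each. They are the 2 windows with matches, in capitals, and those of SPRY4 and DUSP6, the genes whose EBSS responses differed most between ATG7KO and WT cells. DUSP1 is chr5:172771146-172771445, SPRED2 is chr2:65366729-65367028, SPRY4 is chr5:142324198-142324497 and DUSP6 is chr12:89352452-89352751.
DUSP1: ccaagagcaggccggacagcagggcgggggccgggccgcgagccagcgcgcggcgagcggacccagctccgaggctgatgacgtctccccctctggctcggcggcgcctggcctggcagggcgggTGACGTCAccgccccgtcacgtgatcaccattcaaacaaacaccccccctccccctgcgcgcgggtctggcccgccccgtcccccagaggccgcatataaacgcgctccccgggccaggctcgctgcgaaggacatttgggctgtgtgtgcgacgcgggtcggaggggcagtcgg
SPRED2: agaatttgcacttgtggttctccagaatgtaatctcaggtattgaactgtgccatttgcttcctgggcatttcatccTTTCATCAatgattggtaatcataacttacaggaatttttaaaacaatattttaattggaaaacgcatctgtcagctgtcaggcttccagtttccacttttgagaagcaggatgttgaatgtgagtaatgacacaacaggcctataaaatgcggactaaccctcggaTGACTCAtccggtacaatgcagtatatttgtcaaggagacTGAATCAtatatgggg
SPRY4: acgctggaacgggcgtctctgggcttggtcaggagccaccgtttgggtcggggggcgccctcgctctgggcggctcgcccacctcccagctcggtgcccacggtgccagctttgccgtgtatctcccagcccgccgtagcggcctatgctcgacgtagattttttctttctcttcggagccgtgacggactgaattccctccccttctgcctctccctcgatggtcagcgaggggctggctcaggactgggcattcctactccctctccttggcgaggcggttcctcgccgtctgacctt
DUSP6: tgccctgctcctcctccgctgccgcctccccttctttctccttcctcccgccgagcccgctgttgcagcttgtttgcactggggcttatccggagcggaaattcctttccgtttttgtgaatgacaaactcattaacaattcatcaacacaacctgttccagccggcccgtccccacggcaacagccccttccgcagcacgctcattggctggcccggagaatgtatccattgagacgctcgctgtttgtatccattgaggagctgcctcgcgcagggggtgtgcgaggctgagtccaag
DUSP5 and DUSP4 are named without a window. A match is a string of letters and was not tested for binding.

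Reads in genes ranged from 11994110 to 19073798 in 16 libraries, with 4892072 in ATG7KO EBSS replicate 3 and 26005942 in RB1CC1KO EBSS replicate 2. That deepest library gave a chi-square per degree of freedom over genes of 10.5 and 10.4 against replicates 1 and 3 of its group. These gave 5.24 with each other, and pairs within the other groups 2.32 to 7.24. The statistic was taken on raw counts and rises with read depth, so it does not show that the library departs from its group. Without the deepest library the members kept their calls in each comparison except SPRY1 against WT cells, which is given below. Levels are given as CPM, read counts relative to library size after TMM scaling. ATG7 RNA was lower in ATG7KO cells than in WT cells in full medium (4.02 ± 0.436 against 15.6 ± 1.3 CPM, SD over n = 3) and after EBSS (10.4 ± 0.533 against 16.1 ± 1.68 CPM). RB1CC1 RNA was not reduced in the RB1CC1KO libraries, with 157 ± 12.7 CPM in full medium against 105 ± 10.3 CPM in WT cells, so these are called RB1CC1KO-labelled below. The knockout positions are not given in the labels, and an RNA level does not show whether protein was made. BCR and ABL1, the fusion partners of the parental leukaemia, summed to 32.9 to 48.9 CPM per library. PECAM1 was at 0 in every group and the endothelial markers summed to at most 0.496 CPM, while DCN, LUM and FAP were at 0 in every group and the 8 fibroblast markers summed to 13.1 to 31.5 CPM. The 12 blood cell markers summed to 11.7 to 13.2 CPM in ATG7KO, 59.4 to 65.1 CPM in RB1CC1KO-labelled and 44.9 to 53.9 CPM in WT cells in full medium. After EBSS they summed to 3.42 to 3.87 CPM in ATG7KO, 20.3 to 22.4 CPM in RB1CC1KO-labelled and 21.0 to 25.4 CPM in WT cells, with CD3E, GATA1 and HBG1 at 0 in all groups. Only 3 of these 12 passed the filter on low counts, among them KIT, which is also in the receptor list below. After EBSS 1 of the 3 was called higher and 2 lower in each line, so the sums rest on few genes. The 6 epithelial markers summed to 62.5 to 67.0 CPM in ATG7KO, 71.8 to 81.8 CPM in RB1CC1KO-labelled and 102 to 113 CPM in WT cells in full medium. After EBSS they summed to 59.6 to 66.7 CPM in ATG7KO, 85.6 to 96.2 CPM in RB1CC1KO-labelled and 116 to 122 CPM in WT cells. The part of these marker differences in the comparisons below was not tested.

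RNA of most of the 10 genes was higher after EBSS than in full medium. A gene was called where the quasi-likelihood test of edgeR, adjusted over all 15179 genes, gave a p below 0.05. In ATG7KO cells 7 of 10 genes were higher after EBSS and 2 were lower, beside 32.3% and 30.6% of all tested genes. In RB1CC1KO-labelled cells 8 were higher and 1 was lower, beside 31.9% and 33.3%. In WT cells 8 were higher, beside 32.4%, and none was lower (beside 32.1%) by edgeR at the adjusted threshold, at an unadjusted p below 0.05 or by DESeq2. All 8 in WT cells were at least 2-fold higher, a size reached by 9.75% of tested genes. The median log2 fold change of the 10 genes was 0.98 in ATG7KO cells, 1.97 in RB1CC1KO-labelled cells and 1.62 in WT cells, while that of all tested genes was -0.01, -0.03 and -0.02. 7 genes were called higher in all 3 lines, beside 25.2% of tested genes, and SPRY1, DUSP5 and DUSP6 were the 3 that were not. As RNA came from whole cultures, more RNA in every cell and more cells with the RNA cannot be told apart.

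**Figure D1:**
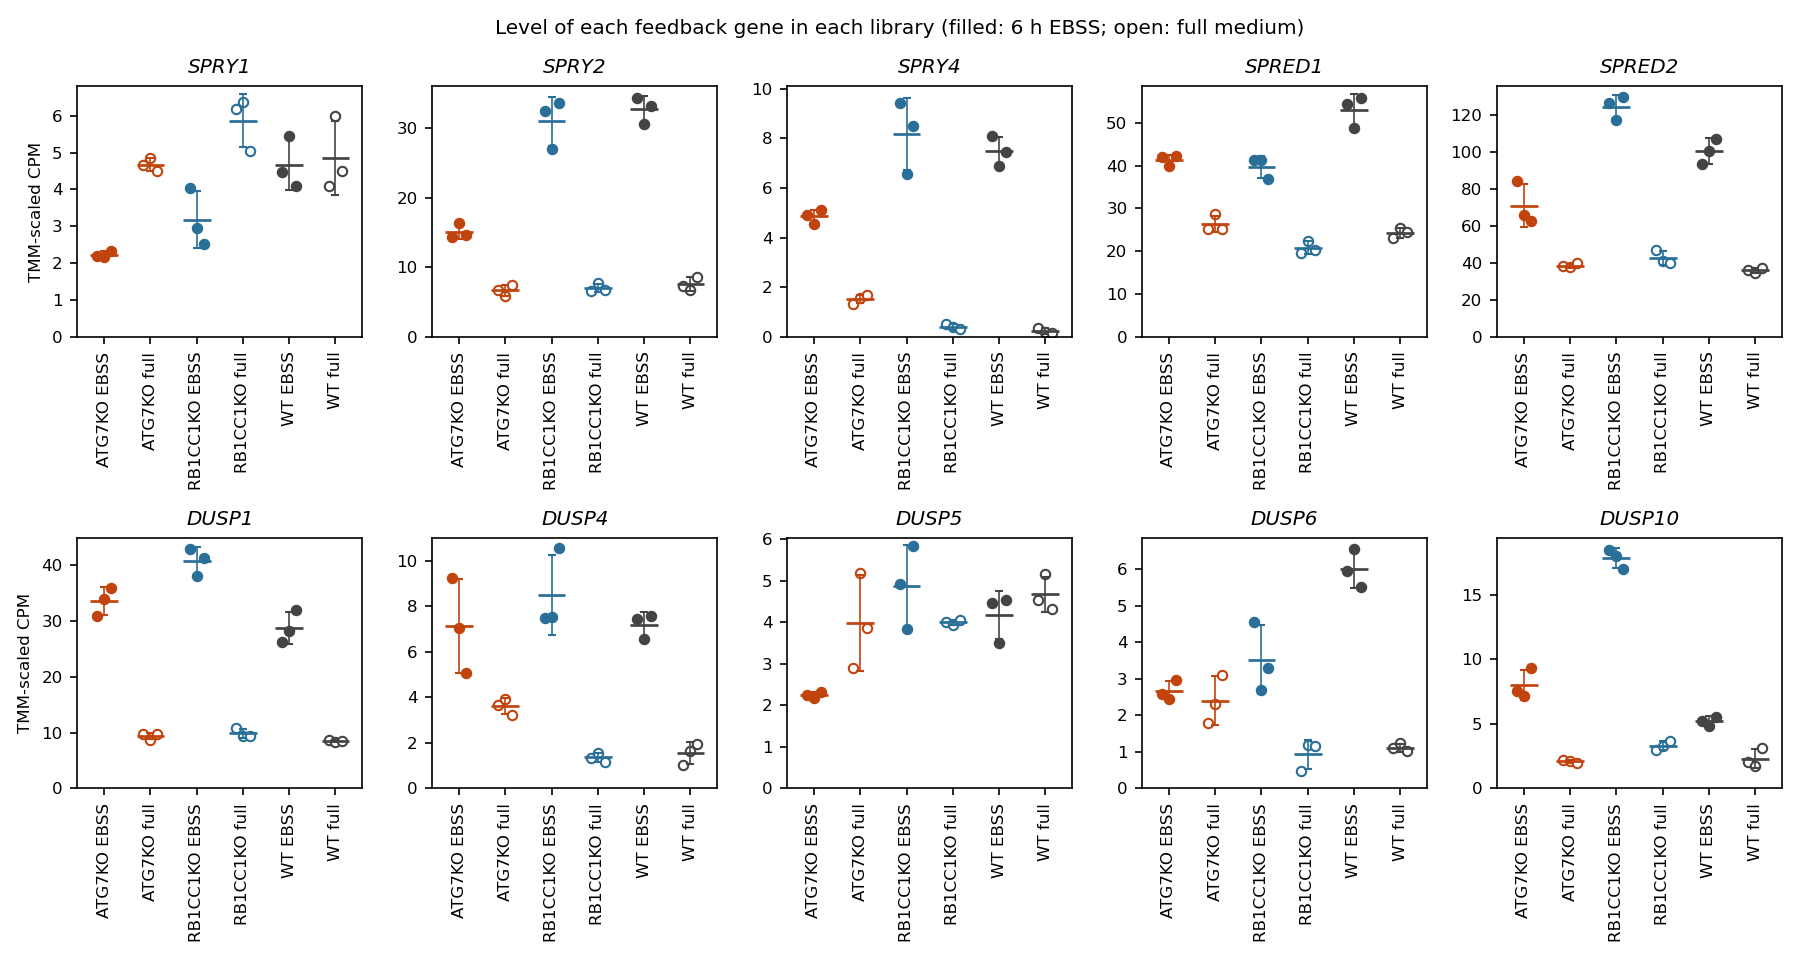
TMM-scaled CPM (vertical axis, from 0, a scale of its own for each gene) of the 10 genes in the 18 libraries; points are libraries, horizontal lines are group means and error bars are the SD of 3 libraries. SPRY4 was between 0.157 and 0.365 CPM in the 3 WT full-medium libraries and between 6.88 and 8.09 CPM in the 3 WT EBSS libraries, while the DUSP5 libraries of most groups overlapped.

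Among the Sprouty genes, SPRY4 had the largest response. In ATG7KO cells it had 4.91, 4.55 and 5.09 CPM after EBSS, against 1.34, 1.57 and 1.68 CPM in full medium, a log2 fold change of 1.65 ± 0.22 (adjusted p = 3.87e-08). RB1CC1KO-labelled cells had 9.43, 6.56 and 8.51 CPM after EBSS, against 0.531, 0.394 and 0.303 CPM in full medium. The log2 fold change was 4.28 ± 0.25 (adjusted p = 4.16e-17). WT cells had 8.09, 6.88 and 7.43 CPM after EBSS, against 0.365, 0.198 and 0.157 CPM in full medium. The full-medium values rest on 5, 4 and 2 reads, so the fold is uncertain, but the fitted log2 fold change was 4.93 ± 0.29 (SE, adjusted p = 6.66e-17) and the starved and fed libraries were far apart. Fed WT and RB1CC1KO-labelled libraries held 2 to 9 SPRY4 reads each, and SPRY4 passed the filter on low counts through the other groups. The ATG7KO line had both the highest fed values and the lowest starved values of the 3 lines, with no overlap with the other lines in either medium.

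SPRY2, a Sprouty protein expressed in many tissues, rose in all lines. It had 14.3, 16.4 and 14.6 CPM in ATG7KO cells after EBSS, against 6.68, 5.95 and 7.42 CPM in full medium, a log2 fold change of 1.19 ± 0.13 (adjusted p = 4.07e-10). RB1CC1KO-labelled cells had 32.4, 27 and 33.5 CPM after EBSS, against 6.66, 7.77 and 6.74 CPM in full medium, a log2 fold change of 2.13 ± 0.11 (adjusted p = 4.79e-18). WT cells had 34.3, 30.5 and 33.1 CPM after EBSS, against 7.38, 6.80 and 8.66 CPM in full medium, a log2 fold change of 2.11 ± 0.11 (adjusted p = 1.07e-17). The fed libraries of all lines overlapped, and after EBSS the ATG7KO libraries lay below all those of the other lines.

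SPRY1 went against its relatives. It had 2.20, 2.17 and 2.33 CPM in ATG7KO cells after EBSS, against 4.67, 4.87 and 4.49 CPM in full medium, and fell by 1.08 ± 0.22 on the log2 scale (adjusted p = 5.37e-05). In RB1CC1KO-labelled cells it had 4.03, 2.96 and 2.53 CPM after EBSS, against 6.19, 6.36 and 5.04 CPM in full medium, and fell by 0.88 ± 0.18 (adjusted p = 6.61e-05). WT cells had 4.47, 5.44 and 4.10 CPM after EBSS, against 4.09, 6.00 and 4.49 CPM in full medium, overlapping ranges with a log2 fold change of -0.08 ± 0.18 (adjusted p = 0.717). SPRY1 was thus lower after EBSS in both knockout-labelled lines, and in WT cells no change was detected at 56 to 121 reads a library. Tested directly, the difference from the WT response did not pass in ATG7KO cells (-1.001, adjusted p = 0.0786). In RB1CC1KO-labelled cells it passed (-0.80, adjusted p = 0.0463), but that call is lost without 8 of the 12 libraries. The shallow ATG7KO EBSS replicate 3 holds 11 SPRY1 reads, and the call in that line is kept without it.

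Both SPRED genes rose in all lines. SPRED1, the gene lost in Legius syndrome, had 41.9, 40.0 and 42.2 CPM in ATG7KO cells after EBSS, against 25.2, 28.7 and 25.3 CPM in full medium (a log2 fold change of 0.64 ± 0.09, adjusted p = 4.78e-08). It had 41.2, 41.2 and 36.8 CPM in RB1CC1KO-labelled cells after EBSS, against 19.7, 22.5 and 20.3 CPM in full medium (0.93 ± 0.08, adjusted p = 6.18e-12). WT cells had 54.4, 48.7 and 55.8 CPM after EBSS, against 23.0, 25.3 and 24.4 CPM in full medium (1.12 ± 0.08, adjusted p = 5.12e-14). The starved and fed libraries did not overlap in any line, and the WT libraries after EBSS stood above those of the other lines. SPRED2, a close relative of SPRED1 that also binds neurofibromin, rose as well. It had 84.2, 65.9 and 62.8 CPM in ATG7KO cells after EBSS, against 38.2, 37.7 and 39.9 CPM in full medium (0.90 ± 0.09, adjusted p = 3.32e-11). RB1CC1KO-labelled cells had 127, 117 and 130 CPM after EBSS, against 46.8, 41.2 and 39.9 CPM in full medium (1.55 ± 0.08, adjusted p = 4.50e-18). WT cells had 93.6, 101 and 107 CPM after EBSS, against 36.1, 34.5 and 37.4 CPM in full medium (1.49 ± 0.08, adjusted p = 4.16e-17). After EBSS the 3 lines were fully separated for SPRED2, with RB1CC1KO-labelled cells highest and ATG7KO cells lowest.

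Of the nuclear phosphatases, DUSP1, an immediate early gene whose product acts on p38, JNK and ERK, rose in each line. It had 30.8, 33.8 and 35.9 CPM in ATG7KO cells after EBSS, against 9.68, 8.76 and 9.67 CPM in full medium (a log2 fold change of 1.82 ± 0.10, adjusted p = 2.12e-17). RB1CC1KO-labelled cells had 42.9, 38.1 and 41.2 CPM after EBSS, against 10.7, 9.46 and 9.35 CPM in full medium (2.04 ± 0.10, adjusted p = 1.48e-19), and WT cells had 26.2, 28.2 and 31.8 CPM after EBSS, against 8.70, 8.33 and 8.50 CPM in full medium (1.76 ± 0.10, adjusted p = 7.76e-17). None of the 3 differences between these responses was called by edgeR at the adjusted threshold or by DESeq2, and none had an unadjusted p below 0.05. Their sizes were 0.07 ± 0.15 for ATG7KO minus WT, 0.29 ± 0.14 for RB1CC1KO-labelled minus WT and 0.22 ± 0.14 for RB1CC1KO-labelled minus ATG7KO cells. DUSP1 is the gene shown above with the full CRE in its promoter window.

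DUSP4 is a nuclear phosphatase of ERK and JNK. It had 9.24, 7.06 and 5.09 CPM in ATG7KO cells after EBSS, against 3.67, 3.95 and 3.24 CPM in full medium (a log2 fold change of 1.05 ± 0.19, adjusted p = 1.52e-05). RB1CC1KO-labelled cells had 7.47, 7.54 and 10.5 CPM after EBSS, against 1.36, 1.58 and 1.15 CPM in full medium (2.62 ± 0.21, adjusted p = 5.25e-13), and WT cells had 7.45, 6.57 and 7.56 CPM after EBSS, against 1.02, 1.64 and 1.97 CPM in full medium (2.21 ± 0.22, adjusted p = 8.78e-11). The starved libraries of the 3 lines overlapped, and the fed ATG7KO libraries stood above all other fed libraries. DUSP5, the nuclear phosphatase specific to ERK, had 2.26, 2.17 and 2.33 CPM in ATG7KO cells after EBSS, against 2.89, 5.19 and 3.87 CPM in full medium. It fell by 0.83 ± 0.23 on the log2 scale in that line (adjusted p = 0.00199). In RB1CC1KO-labelled cells it had 4.92, 3.85 and 5.84 CPM after EBSS, against 4.01, 3.94 and 4.07 CPM in full medium (0.26 ± 0.19, adjusted p = 0.232), and in WT cells 4.47, 3.50 and 4.55 CPM after EBSS, against 4.53, 5.16 and 4.33 CPM in full medium (-0.18 ± 0.19, adjusted p = 0.432). The ranges overlapped in these 2 lines, and DUSP5, like SPRY1, was not called higher in any line.

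DUSP6, the cytoplasmic phosphatase specific to ERK, was called higher in 2 of the 3 lines. ATG7KO cells had 2.58, 2.45 and 2.97 CPM after EBSS, against 1.78, 2.32 and 3.12 CPM in full medium, overlapping ranges with a log2 fold change of 0.12 ± 0.26 (adjusted p = 0.712). The ATG7KO value is -0.04 with upper-quartile scaling, so no direction is given. RB1CC1KO-labelled cells had 4.56, 2.71 and 3.31 CPM after EBSS, against 0.472, 1.18 and 1.15 CPM in full medium, a log2 fold change of 1.89 ± 0.27 (adjusted p = 2.23e-07). WT cells had 5.96, 6.57 and 5.51 CPM after EBSS, against 1.10, 1.24 and 1.02 CPM in full medium, a log2 fold change of 2.4 ± 0.26 (adjusted p = 4.32e-10). The fed ATG7KO libraries lay between the fed and the starved WT libraries. An antisense gene overlaps DUSP6 exons in GENCODE 29 and has no row in the count tables, and since the strand setting of the counting is not given, its reads could be among those of DUSP6.

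DUSP10, which prefers the stress kinases JNK and p38, rose in all lines with another order. It had 7.56, 7.13 and 9.34 CPM in ATG7KO cells after EBSS, against 2.17, 2.11 and 2.00 CPM in full medium (a log2 fold change of 1.88 ± 0.18, adjusted p = 4.84e-11). RB1CC1KO-labelled cells had 18.5, 18 and 17 CPM after EBSS, against 3.01, 3.27 and 3.70 CPM in full medium (2.42 ± 0.15, adjusted p = 3.55e-16). WT cells had 5.25, 4.82 and 5.57 CPM after EBSS, against 2.05, 1.74 and 3.15 CPM in full medium (1.22 ± 0.19, adjusted p = 7.80e-07). After EBSS the 3 lines did not overlap, with RB1CC1KO-labelled cells highest and WT cells lowest.

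**Figure D2:**
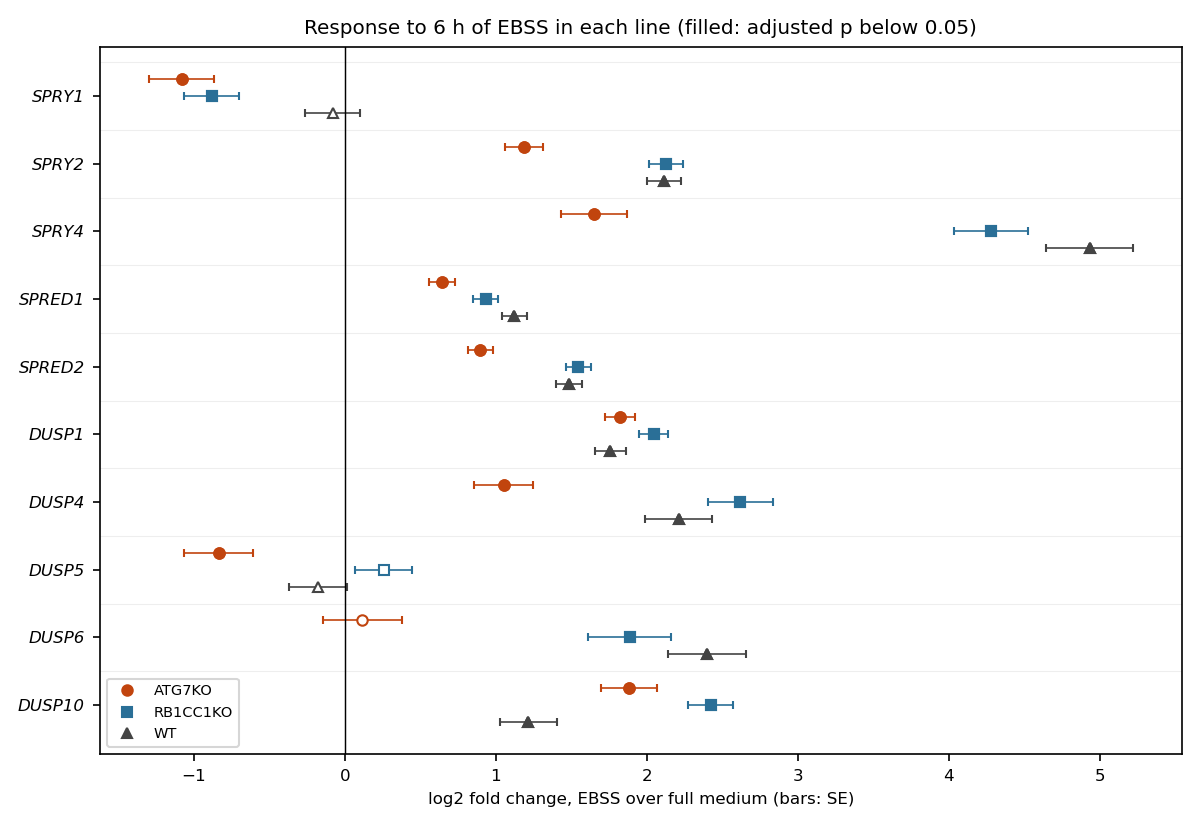
Log2 fold change of EBSS over full medium (horizontal axis) for the 10 genes in ATG7KO, RB1CC1KO-labelled and WT cells; bars are the SE, and filled symbols passed an adjusted p below 0.05. The ATG7KO symbol lies left of the WT symbol for SPRY4 (1.65 against 4.93) and DUSP6 (0.12 against 2.4), and beside it for DUSP1 (1.82 against 1.76).

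Comparing genes with each other needs a value per length, for which CPM was divided by the length of all exons in GENCODE 29 (RPKM). On that scale SPRED2 and DUSP1 were the most abundant in WT cells, with 19.5 and 14.2 RPKM after EBSS and 6.98 and 4.22 RPKM in full medium. SPRY2 had 10.8 RPKM after EBSS and 2.51 in full medium, and SPRED1 had 6.41 and 2.94. DUSP10, DUSP5, DUSP6, SPRY1, SPRY4 and DUSP4 were between 0.991 and 1.79 RPKM in WT cells after EBSS. In fed WT cells SPRY4 was lowest, at 0.0366 RPKM. When the 6 groups of each gene were ordered by mean CPM, the libraries of neighbouring groups overlapped at 24 of 50 steps, among them 4 of the 5 steps of DUSP5 and none of the 5 steps of SPRED2.

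In full medium, ATG7KO cells had higher RNA of 3 of the 10 genes than WT cells, beside 4.47% of tested genes called higher, and all 3 differed by at least 2-fold, beside 1.03%. SPRY4 had 1.34, 1.57 and 1.68 CPM in ATG7KO cells, against 0.365, 0.198 and 0.157 CPM in WT cells (log2 fold change 2.65 ± 0.37, adjusted p = 1.52e-06). DUSP4 was higher by 1.23 ± 0.24 (adjusted p = 0.000332) and DUSP6 by 1.07 ± 0.28 (adjusted p = 0.0101). The fed ATG7KO libraries were all above the fed WT libraries for 5 of the 10 genes, these 3 with DUSP1 and SPRED2, beside 13.6% of tested genes. The DUSP6 call is lost without ATG7KO full-medium replicate 3 (0.85, adjusted p = 0.0849), while those of SPRY4 and DUSP4 are kept without any single library. SPRY1 (-0.08 ± 0.18), SPRY2 (-0.18 ± 0.13), SPRED1 (0.12 ± 0.09), SPRED2 (0.10 ± 0.09), DUSP1 (0.14 ± 0.11), DUSP5 (-0.24 ± 0.19) and DUSP10 (-0.10 ± 0.21) did not pass (adjusted p between 0.448 and 0.848).

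In RB1CC1KO-labelled cells in full medium, DUSP10 (0.57 ± 0.20, adjusted p = 0.0424) and SPRED2 (0.25 ± 0.09, adjusted p = 0.0455) passed against WT cells, 2 of 10 beside 8.30% of tested genes called higher. Neither call is firm. SPRED2 is lost without any one of the 6 libraries (adjusted p between 0.0739 and 0.212). DUSP10 is lost without WT full-medium replicate 1 or 2 or without RB1CC1KO full-medium replicate 2 or 3 (adjusted p between 0.0995 and 0.287). With RLE scaling or without the filter 1 of the 2 is called, and with upper-quartile scaling, DESeq2 or only the compared groups neither is. SPRED1 passes, lower than in WT cells, without RB1CC1KO full-medium replicate 2 (-0.30, adjusted p = 0.0429). SPRY4 was at 0.531, 0.394 and 0.303 CPM against 0.365, 0.198 and 0.157 CPM in WT cells, overlapping ranges (0.77 ± 0.49, adjusted p = 0.317). With only the compared groups fitted, SPRY4 did not pass the filter on low counts and has no value. SPRY1 (0.25 ± 0.17), SPRY2 (-0.09 ± 0.13), SPRED1 (-0.22 ± 0.09), DUSP1 (0.21 ± 0.11), DUSP4 (-0.18 ± 0.28), DUSP5 (-0.23 ± 0.19) and DUSP6 (-0.27 ± 0.34) did not pass (adjusted p between 0.0791 and 0.73).

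Set against the ATG7KO line in full medium, RB1CC1KO-labelled cells had lower SPRY4 (-1.88 ± 0.32, adjusted p = 2.19e-05), DUSP4 (-1.41 ± 0.24, adjusted p = 2.09e-05), DUSP6 (-1.34 ± 0.29, adjusted p = 0.000556) and SPRED1 (-0.34 ± 0.09, adjusted p = 0.00339), 4 of 10 beside 9.99% of tested genes called lower. DUSP10 was higher (0.66 ± 0.19, adjusted p = 0.0115), beside 11.4%. The DUSP10 call is lost without RB1CC1KO full-medium replicate 3 (0.55, adjusted p = 0.0761). SPRY1 (0.33 ± 0.17), SPRY2 (0.08 ± 0.13), SPRED2 (0.14 ± 0.09), DUSP1 (0.07 ± 0.11) and DUSP5 (0.00441 ± 0.19) did not pass (adjusted p between 0.191 and 0.993). The comparison shares libraries with both comparisons against WT cells and is not independent of them.

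After EBSS SPRY4 and DUSP6, which were higher in ATG7KO than in WT cells in full medium, were lower. In all, 7 of the 10 genes were lower than in WT cells, beside 7.17% of tested genes, and 1 was higher, beside 6.07%. DUSP6 had 2.58, 2.45 and 2.97 CPM in ATG7KO cells, against 5.96, 6.57 and 5.51 CPM in WT cells (-1.21 ± 0.24, adjusted p = 0.000343). SPRY2 was lower by 2.15-fold (log2 fold change -1.10 ± 0.11, adjusted p = 1.29e-09) and SPRY1 by 2.11-fold (-1.08 ± 0.22, adjusted p = 0.000529). The 3 were the genes lower by at least 2-fold, beside 1.67% of tested genes. DUSP5 (-0.89 ± 0.23, adjusted p = 0.00662), SPRY4 (-0.63 ± 0.18, adjusted p = 0.0138), SPRED2 (-0.48 ± 0.08, adjusted p = 3.83e-05) and SPRED1 (-0.36 ± 0.08, adjusted p = 0.00209) were also lower, and no library of the ATG7KO group overlapped the WT group for these 7 genes, a separation in this direction that 14.1% of tested genes showed. DUSP10 was higher (0.57 ± 0.16, adjusted p = 0.0153). The SPRY4 call is lost without WT EBSS replicate 1 (-0.59, adjusted p = 0.0580) or ATG7KO EBSS replicate 2 (-0.60, adjusted p = 0.0808), and the DUSP10 call without WT EBSS replicate 2 (0.51, adjusted p = 0.0678) or ATG7KO EBSS replicate 3 (0.50, adjusted p = 0.0599). DUSP1 (0.20 ± 0.09, adjusted p = 0.150) and DUSP4 (0.07 ± 0.18, adjusted p = 0.866) did not pass.

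RB1CC1KO-labelled cells after EBSS had 3 genes higher than WT cells, beside 14.8% of tested genes, and 3 lower, beside 16.9%. DUSP10 had 18.5, 18 and 17 CPM, against 5.25, 4.82 and 5.57 CPM in WT cells, a log2 fold change of 1.77 ± 0.14 (adjusted p = 5.02e-12) with a wide gap between the groups. DUSP1 was higher by 0.50 ± 0.09 (adjusted p = 2.67e-05) and SPRED2 by 0.31 ± 0.08 (adjusted p = 0.00248). DUSP6 (-0.79 ± 0.21, adjusted p = 0.00400), SPRY1 (-0.55 ± 0.19, adjusted p = 0.0228) and SPRED1 (-0.41 ± 0.08, adjusted p = 0.000108) were lower. The SPRY1 call is lost without WT EBSS replicate 2 (-0.43, adjusted p = 0.141), RB1CC1KO EBSS replicate 2 (-0.49, adjusted p = 0.0860) or RB1CC1KO EBSS replicate 3 (-0.44, adjusted p = 0.105), and where only the compared groups are fitted (-0.56, adjusted p = 0.0503). SPRY2 (-0.08 ± 0.10), SPRY4 (0.12 ± 0.16), DUSP4 (0.23 ± 0.17) and DUSP5 (0.20 ± 0.19) did not pass (adjusted p between 0.319 and 0.605). Against starved ATG7KO cells, RB1CC1KO-labelled cells had 6 of 10 genes higher, beside 13.7% of tested genes: DUSP10 (1.20 ± 0.14), DUSP5 (1.10 ± 0.22), SPRY2 (1.02 ± 0.11), SPRED2 (0.79 ± 0.08), SPRY4 (0.75 ± 0.18) and DUSP1 (0.29 ± 0.09), with adjusted p between 1.17e-09 and 0.0114. SPRY1 (0.52 ± 0.23), SPRED1 (-0.05 ± 0.08), DUSP4 (0.16 ± 0.18) and DUSP6 (0.42 ± 0.25) did not pass (adjusted p between 0.0818 and 0.687). SPRY1 passes without RB1CC1KO EBSS replicate 3 (0.64, adjusted p = 0.0429).

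**Figure D3:**
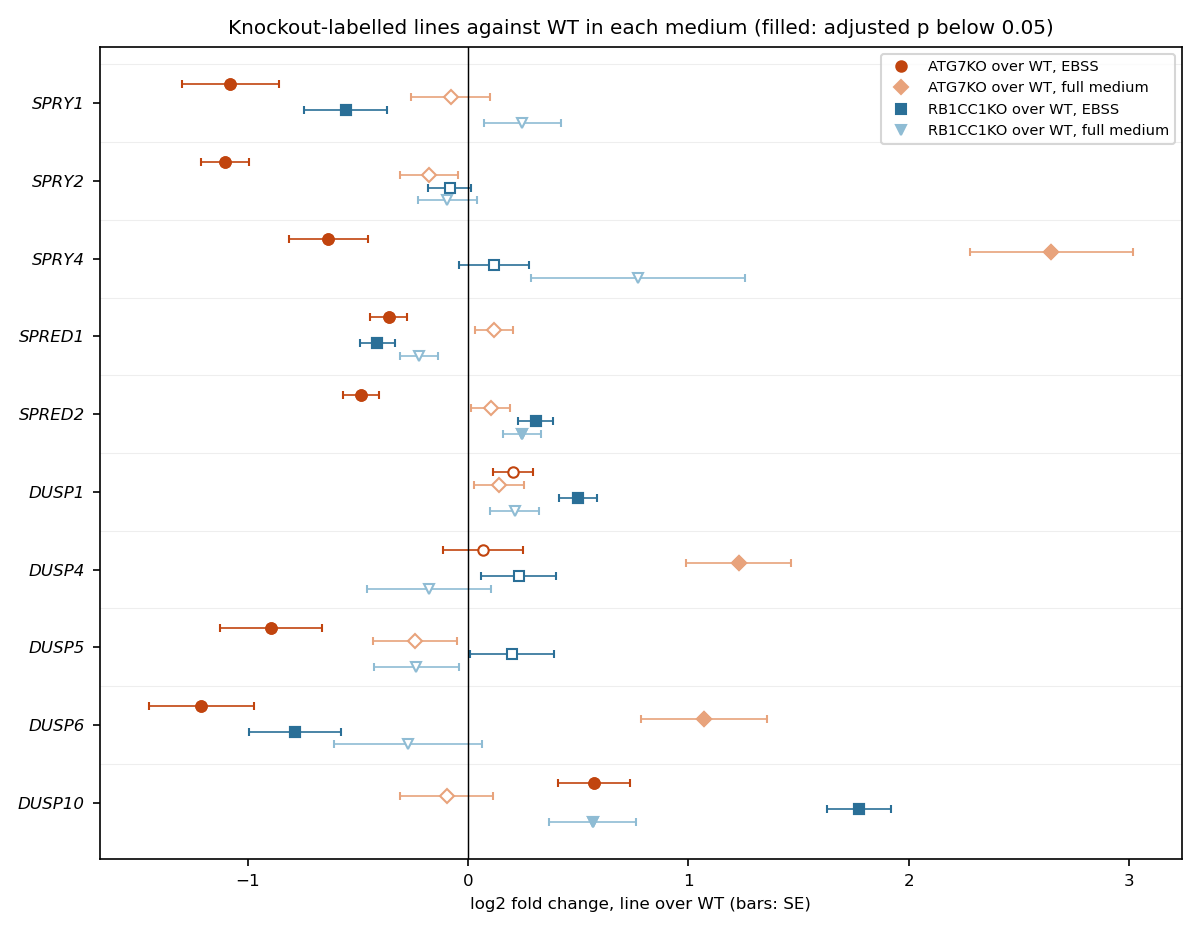
Log2 fold change of ATG7KO over WT and of RB1CC1KO-labelled over WT (horizontal axis) for the 10 genes after EBSS and in full medium; bars are the SE, and filled symbols passed an adjusted p below 0.05. SPRY4 and DUSP6 in ATG7KO cells lie right of 0 in full medium (2.65 and 1.07) and left of 0 after EBSS (-0.63 and -1.21).

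Whether the response to EBSS itself differed between lines was tested as the difference of the 2 log2 fold changes within the model. The response of ATG7KO cells was smaller than that of WT cells for 6 of the 10 genes, beside 0.685% of tested genes with a lower response. This background rests on few genes: 160 were called in either direction, and between 71 and 275 when 1 library was left out. The largest differences were those of SPRY4 (-3.28 ± 0.41, adjusted p = 4.36e-06) and DUSP6 (-2.28 ± 0.37, adjusted p = 0.000446). For SPRY4 the fed WT side of the difference rests on 11 reads over 3 libraries. SPRY2 differed by -0.92 ± 0.17 (adjusted p = 0.00298) and SPRED2 by -0.59 ± 0.12 (adjusted p = 0.00735). For these 4 genes the call is kept when any single library is left out. DUSP4 (-1.16 ± 0.30, adjusted p = 0.0465) is lost without 10 of the 12 libraries (adjusted p between 0.0553 and 0.185), all but WT full-medium replicate 3 and ATG7KO EBSS replicate 1. SPRED1 (-0.48 ± 0.12, adjusted p = 0.0372) is lost without 8 of the 12 (adjusted p between 0.0536 and 0.133), all but WT full-medium replicate 2, WT EBSS replicate 2, ATG7KO full-medium replicate 3 and ATG7KO EBSS replicate 1. SPRY1 did not pass (-1.001 ± 0.28, adjusted p = 0.0786), but passes without WT full-medium replicate 2 (-1.21, adjusted p = 0.0317) or WT EBSS replicate 3 (-1.09, adjusted p = 0.0460). DUSP1 (0.07 ± 0.15), DUSP5 (-0.66 ± 0.30) and DUSP10 (0.67 ± 0.27) did not pass (adjusted p between 0.229 and 0.887). For SPRY4 and DUSP6 the smaller response stands beside a higher fed level, whereas SPRY2 and SPRED2 had fed levels whose difference from WT did not pass (-0.18 ± 0.13 and 0.10 ± 0.09) and lower starved levels.

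The response of RB1CC1KO-labelled cells exceeded that of WT cells for DUSP10 (1.21 ± 0.25, adjusted p = 0.00143), 1 of 10 beside 2.68% of tested genes. It was lower for SPRY1 (-0.80 ± 0.26, adjusted p = 0.0463), beside 5.47%, and this call is lost without 8 of the 12 libraries (adjusted p between 0.0777 and 0.158), all but WT full-medium replicate 2, WT EBSS replicate 3, RB1CC1KO full-medium replicate 3 and RB1CC1KO EBSS replicate 1. It is also lost with RLE scaling, no filter, DESeq2 or only the compared groups (adjusted p between 0.0512 and 0.0835). SPRY4 (-0.65 ± 0.51), DUSP6 (-0.51 ± 0.40) and SPRY2 (0.01 ± 0.16) did not pass. The wide errors of SPRY4 and DUSP6 come with few reads in full medium. There were 21 SPRY4 and 48 DUSP6 reads over the 3 RB1CC1KO-labelled libraries, and 11 and 53 over the 3 WT libraries. SPRED1 (-0.19 ± 0.12), SPRED2 (0.06 ± 0.12), DUSP1 (0.29 ± 0.14), DUSP4 (0.41 ± 0.33) and DUSP5 (0.43 ± 0.27) did not pass (adjusted p between 0.238 and 0.823). The log2 response of RB1CC1KO-labelled cells was above that of ATG7KO cells for 6 of the 10 genes, beside 0.982% of tested genes. These were SPRY4 (2.63 ± 0.36, adjusted p = 1.53e-05), DUSP6 (1.77 ± 0.38, adjusted p = 0.00439), DUSP4 (1.57 ± 0.30, adjusted p = 0.00108), DUSP5 (1.09 ± 0.30, adjusted p = 0.0303), SPRY2 (0.94 ± 0.17, adjusted p = 0.000763) and SPRED2 (0.65 ± 0.12, adjusted p = 0.000704). For DUSP5 the difference sets a fall in ATG7KO cells (-0.83 ± 0.23) against a response in RB1CC1KO-labelled cells that did not pass (0.26 ± 0.19). SPRY1 (0.20 ± 0.29), SPRED1 (0.29 ± 0.12), DUSP1 (0.22 ± 0.14) and DUSP10 (0.54 ± 0.25) did not pass (adjusted p between 0.231 and 0.843). The DUSP5 call is lost without 6 of the 12 libraries (adjusted p between 0.0504 and 0.149): ATG7KO full-medium replicates 2 and 3, ATG7KO EBSS replicates 1 and 2, RB1CC1KO full-medium replicate 1 and RB1CC1KO EBSS replicate 3. The comparisons with WT and between the knockout-labelled lines share libraries.

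**Figure D4:**
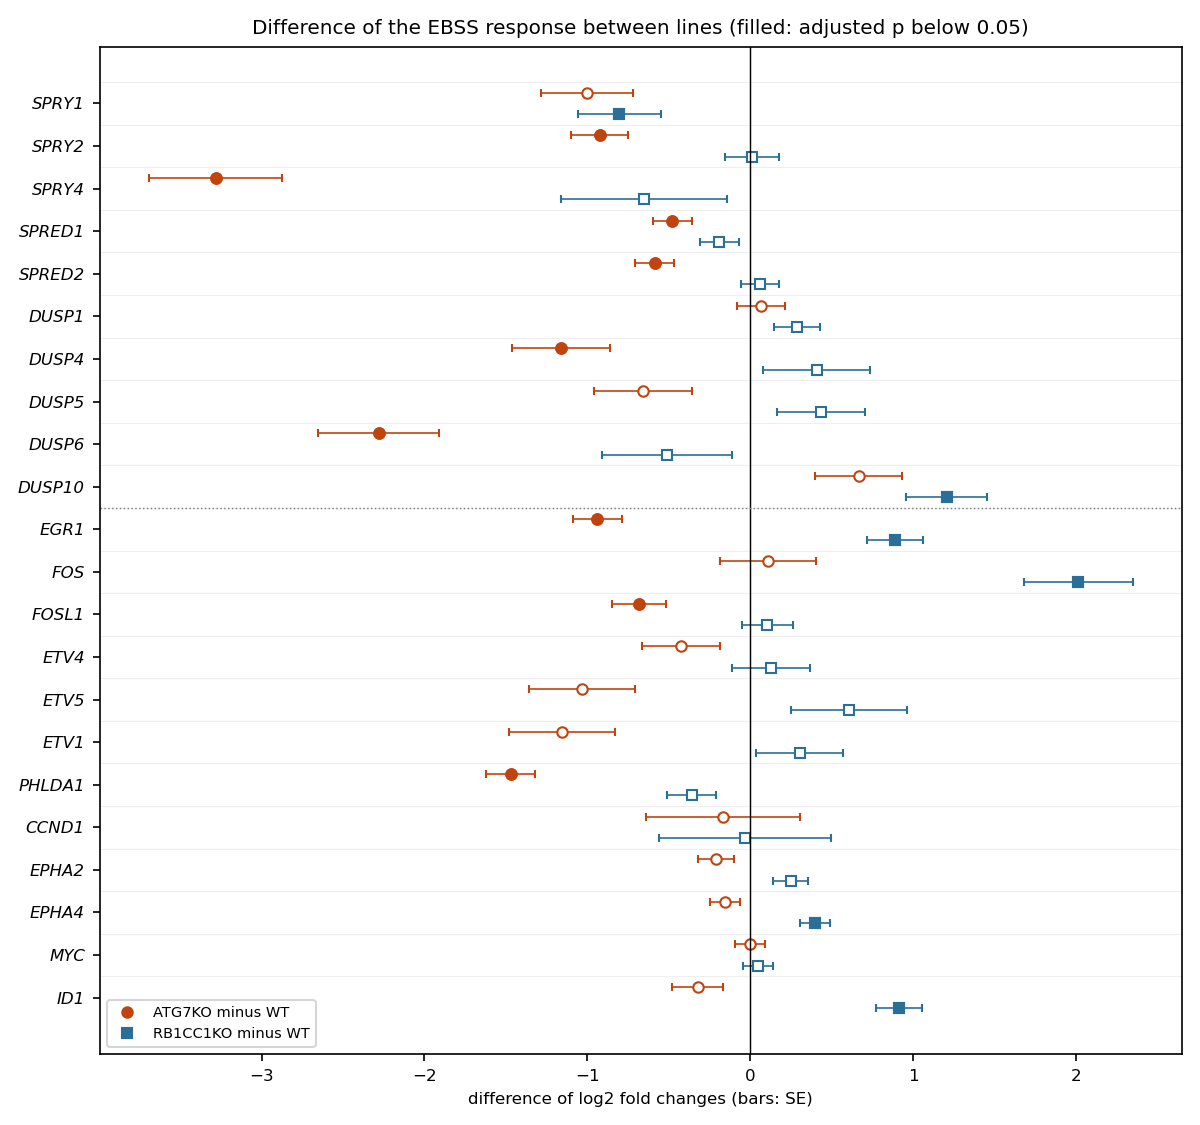
Difference of the EBSS response (log2 fold change in the line minus that in WT cells, horizontal axis) for the 10 genes above the dotted line and 12 ERK-responsive transcripts below it. Bars are the SE, and filled symbols passed an adjusted p below 0.05. ATG7KO symbols lie left of 0 for SPRY4 (-3.28), DUSP6 (-2.28), PHLDA1 (-1.47) and EGR1 (-0.94), and the RB1CC1KO symbol lies right of 0 for FOS (2.02).

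Of 12 transcripts that ERK is known to switch on, or to change, 5 were higher and 6 lower after EBSS in ATG7KO cells, 9 higher and 3 lower in RB1CC1KO-labelled cells, and 8 higher and 3 lower in WT cells. Of all tested genes 32.3%, 31.9% and 32.4% were called higher in these lines and 30.6%, 33.3% and 32.1% lower. EGR1, an immediate early transcription factor, had 1442 ± 152 CPM in ATG7KO cells after EBSS against 11.6 ± 1.19 CPM in full medium, and 1795 ± 169 against 7.77 ± 1.54 CPM in WT cells (SD, n = 3). PHLDA1, a pleckstrin-homology protein induced by growth factors, had 21.5 ± 2.21 CPM after EBSS against 27.3 ± 1.65 CPM in full medium in ATG7KO cells (log2 fold change -0.34, adjusted p = 0.00653). In WT cells PHLDA1 had 37.3 ± 4.56 CPM after EBSS against 17.1 ± 0.809 CPM in full medium (1.13, adjusted p = 1.47e-11). PHLDA1 thus moved in opposite directions in the 2 lines, and with the higher fed level in ATG7KO cells that SPRY4, DUSP4 and DUSP6 also had. Compared with WT cells in full medium, ATG7KO cells had 5 of the 12 transcripts higher (beside 4.47% of tested genes) and 1 lower, among the higher ones PHLDA1 (0.68), EGR1 (0.62) and CCND1, a cyclin of the G1 phase (1.35). Over all tested genes 1599 were called in this comparison, 42.4% of them higher and the rest lower. The log2 response to EBSS was lower in ATG7KO than in WT cells for PHLDA1 (-1.47), EGR1 (-0.94) and FOSL1, an AP-1 subunit (-0.68), 3 of the 12 beside 0.685% of tested genes. It was higher in RB1CC1KO-labelled than in WT cells for 4 of the 12, beside 2.68%, FOS (2.02), ID1 (0.91) and EGR1 (0.89) among them. ID1, an inhibitor of basic helix-loop-helix factors, fell in all lines, least in RB1CC1KO-labelled cells, by 2.97 in ATG7KO, by 1.73 in RB1CC1KO-labelled and by 2.65 in WT cells on the log2 scale. The log2 response of RB1CC1KO-labelled cells was above that of ATG7KO cells for 9 of the 12, beside 0.982% of tested genes, with a median difference of 0.95 on the log2 scale beside -0.03 for all tested genes.

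Of 20 genes of the core cascade from Ras adaptors to ERK, 14 were higher and 2 lower after EBSS in ATG7KO cells, 14 higher and 3 lower in RB1CC1KO-labelled cells, and 12 higher and 3 lower in WT cells, beside 31.9% to 32.4% of all tested genes higher and 30.6% to 33.3% lower. The medians were 0.38, 0.33 and 0.38 on the log2 scale. In WT cells the kinase BRAF rose by 1.40, the Ras exchange factor SOS1 by 1.38 and the FGF receptor adaptor FRS2 by 0.86. No response of the 20 differed between ATG7KO and WT cells by edgeR at the adjusted threshold or by DESeq2, while 4 had an unadjusted p below 0.05.

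Among 15 other brakes on Ras and ERK, 10 were higher and 2 lower after EBSS in ATG7KO cells, 12 higher and 2 lower in RB1CC1KO-labelled cells, and 12 higher and 1 lower in WT cells, beside the same shares of all tested genes. CBLB and CBL, ubiquitin ligases that send receptors to degradation, rose by 1.97 and 1.12 in WT cells, ERRFI1, an inhibitor of EGF receptor kinases, by 1.77 and the ubiquitin ligase adaptor SPOP by 1.08. RGS2, a regulator of G protein signalling, fell by 0.81 after EBSS in ATG7KO cells and rose by 0.62 in WT cells, a difference of -1.44 (adjusted p = 2.02e-06). It was also higher in ATG7KO than in WT cells in full medium (0.62, adjusted p = 0.000232). The 7 Sprouty, SPRED and MAP kinase phosphatase genes outside the 10 gave 3 higher and 1 lower in ATG7KO and in WT cells, and 4 higher and 1 lower in RB1CC1KO-labelled cells, beside 32.3%, 32.4% and 31.9% of all tested genes higher. DUSP8, a phosphatase of JNK and p38, had 40.2 ± 2.24 CPM in ATG7KO cells after EBSS against 3.61 ± 0.822 CPM in full medium, and 36.7 ± 8.77 against 4.60 ± 0.905 CPM in WT cells. DUSP16, another phosphatase of that kind, rose by 1.06 and SPRED3 by 2.41 in WT cells, and DUSP2 fell by 1.43.

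For the kinases that DUSP10, DUSP8 and DUSP16 oppose, 5 of 10 JNK and p38 pathway genes were higher after EBSS in ATG7KO cells, 6 higher in RB1CC1KO-labelled cells, and 5 higher and 3 lower in WT cells, beside 31.9% to 32.4% of all tested genes higher and 30.6% to 33.3% lower. MAP2K7, a kinase that activates JNK, rose by 1.21 in WT cells and MAPK8, which encodes JNK1, by 0.82. The 12 receptors upstream of Ras were mixed, with 3 higher and 4 lower after EBSS in ATG7KO cells, 4 higher and 3 lower in RB1CC1KO-labelled cells and 4 higher and 6 lower in WT cells, beside the same shares of all tested genes. INSR rose by 0.63 and MET by 0.41 in WT cells, while KIT fell by 1.31 and ERBB2 by 0.67. The lines differed in the receptors they expressed. In full medium ATG7KO cells had more EGFR (log2 fold change 3.42, adjusted p = 3.63e-07), ERBB2 (2.27, adjusted p = 1.39e-19) and PDGFRA (0.63) than WT cells, and less KIT (-2.44) and MET (-0.55). RB1CC1KO-labelled cells had more MET (1.07) and less PDGFRA (-2.85) and ERBB2 (-0.65) than WT cells. Whether receptor levels have a part in the levels of the 10 genes was not tested.

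The 10 genes also differed in which transcripts tracked them. Over the 18 libraries, which share 2 media, the Pearson correlation of log2 CPM between pairs of the 10 genes ranged from -0.70 for SPRY1 with DUSP1 to 0.963 for SPRY2 with SPRED2 (45 pairs). With each library taken as its deviation from its group mean, these pairs gave 0.026 and 0.088. The 45 pairs then ranged from -0.361 for SPRY4 with DUSP10 to 0.497 for SPRED2 with DUSP4. The coefficients over the 18 libraries thus mainly reflect differences between the groups. Among 12824 protein-coding genes tested outside the 10, the closest to SPRY2 were SH3BP4 (r = 0.985) and TGIF1 (0.984), to SPRY4 LATS2 (0.961) and PRNP (0.959), and to SPRY1 UBE2Q2 (0.899) and CLDN12 (0.895). NAB2, a co-repressor that binds EGR1 and its relatives, was the closest to SPRED1 (0.983) and to DUSP6 (0.901), with KLF3 (0.981) and PHLDA1 (0.899) next. JAG1 (0.982) and CEMIP2 (0.987) were closest to SPRED2, NHSL1 (0.996) and ZNF592 (0.995) to DUSP1, and TANC2 (0.959) and GABARAP (0.957) to DUSP4. DUSP10 was closest to CDC25A (0.980), a cell cycle phosphatase, and MCM2 (0.972), a subunit of the replicative helicase. DUSP5 had the lowest best match, IL12A (0.859), followed by ZNF571 (0.815). These coefficients describe the libraries and carry no test, and for genes outside the 10 the correlation within groups was not computed.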

How the data were processed

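Polyadenylated RNA of HAP1 cells was sequenced as 75 bp single-end directional reads in 3 independent biological replicates of 6 groups, per the labels' protocols. The authors deposited raw read counts per Ensembl gene, 1 table a library, and HTSeq 0.6.1p1, STAR 2.4.2a, DESeq2, edgeR, Picard and the GRCh37 (hg19) build are listed in the submitters' processing notes. Neither the strand setting nor the annotation release is recorded there. Lines that name no gene entered no library size. Of the reads counted in genes, in no feature or as ambiguous, 9.39% to 15.1% were in no feature and 2.08% to 2.42% ambiguous.

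Counts were tested with edgeR 4.0.16 in R 4.3.3 (TMM scaling, filterByExpr, robust quasi-likelihood fit of 6 groups over all 18 libraries, Benjamini-Hochberg adjustment over 15179 genes, threshold 0.05). SEs are the absolute log2 fold change divided by the square root of the F statistic, and errors on levels are SDs over 3 libraries. The common biological coefficient of variation was 6.72%. The script was tested on simulated data. Gene names and exon lengths came from GENCODE 29, matching 52526 of 63677 identifiers, so per-length levels use GRCh38 lengths. Motifs were searched in RefSeq promoter windows of GRCh38.p14. Alternatives were RLE and upper-quartile scaling, no filter, DESeq2 1.42.0, the compared groups only, a replicate block and leaving out each library.

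The members and lists were chosen with earlier results of these data known. All 10 members are named in every comparison of the report. From each pathway list up to 4 genes with the smallest p in WT cells are named, with up to 2 more for a comparison between lines, and for each member the 2 protein-coding genes with the highest correlation, computed on log2 CPM with a prior count of 2. Some genes of the lists are not reported here by name.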

Additional observations from a re-analysis of the deposited data

Results flagged for a closer look

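The response to EBSS differed between lines, by a test of the difference itself in edgeR's quasi-likelihood model, for the members listed here on the log2 scale. In ATG7KO minus WT cells the differences were -3.28 for SPRY4, -2.28 for DUSP6, -1.16 for DUSP4, -0.92 for SPRY2, -0.59 for SPRED2 and -0.48 for SPRED1. In RB1CC1KO-labelled minus WT cells they were 1.21 for DUSP10 and -0.80 for SPRY1. In RB1CC1KO-labelled minus ATG7KO cells they were 2.63 for SPRY4, 1.77 for DUSP6, 1.57 for DUSP4, 1.09 for DUSP5, 0.94 for SPRY2 and 0.65 for SPRED2. With each of the 12 libraries left out in turn, DUSP4 and SPRED1 in the first set lost their call without 10 and 8 of them. SPRY1 in the second set lost its call without 8 of the 12, and DUSP5 in the last without 6 of the 12. The sets share libraries and are not independent of each other. Outlying samples were not tested for, as each group holds 3 libraries.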

How the results depend on the processing

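Of the alternative values computed, 1523 kept their direction and their side of the threshold, 64 fell short of it, 5 passed it newly and 27 changed sign. For RB1CC1KO-labelled against WT cells in full medium, the 2 members called became 1 with RLE scaling or no filter and 0 with upper-quartile scaling, DESeq2 or the compared groups only, and 0 to 1 with 1 library left out, SPRED1 being the 1 without RB1CC1KO full-medium replicate 2; 3 had an unadjusted p below 0.05 in edgeR. For the response of RB1CC1KO-labelled minus WT cells, 2 members became 1 with RLE scaling, no filter, DESeq2 or the compared groups only, and 1 to 2 with 1 library left out. Genes called for the response of ATG7KO minus WT cells numbered 160, against 281 with no filter, 293 with the replicate block and 71 (without ATG7KO EBSS replicate 2) to 275 (without WT EBSS replicate 3). With 1 library left out, genes called ranged from 1235 to 1922 for ATG7KO against WT cells after EBSS (2010 with all), from 788 to 1588 for the response of RB1CC1KO-labelled minus WT cells (1238 with all) and from 295 to 468 for that of RB1CC1KO-labelled minus ATG7KO cells (498 with all). The cause was not tested.

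Sign changes touched values that passed no threshold. DUSP6 after EBSS in ATG7KO cells was -0.045 with upper-quartile scaling and -0.0591 to 0.335 with 1 library left out. DUSP5 in RB1CC1KO-labelled against ATG7KO cells in full medium was -0.00503 with RLE scaling, -0.0301 with upper-quartile scaling, -0.00256 with no filter, -0.00423 with DESeq2, -0.0226 with the compared groups only, and -0.184 to 0.25 with 1 library left out. The other ranges with 1 library left out were -0.206 to 0.126 for SPRY1 after EBSS in WT cells, -0.189 to 0.127 for SPRY1 and -0.302 to 0.165 for DUSP10 in ATG7KO against WT cells in full medium, -0.499 to 0.0425 for DUSP6 in RB1CC1KO-labelled against WT cells in full medium, -0.189 to 0.184 for DUSP4 in ATG7KO against WT cells after EBSS, and -0.142 to 0.0174 for SPRY2 in RB1CC1KO-labelled against WT cells after EBSS. In RB1CC1KO-labelled against ATG7KO cells they were -0.00985 to 0.162 for SPRY2 in full medium, and -0.0731 to 0.00191 for SPRED1 and -0.0044 to 0.432 for DUSP4 after EBSS. For the responses they were -0.0197 to 0.145 for DUSP1 in ATG7KO minus WT cells and -0.0506 to 0.113 for SPRY2 in RB1CC1KO-labelled minus WT cells.

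Upper-quartile scaling moved the median of all genes after EBSS to -0.17 in ATG7KO, -0.17 in RB1CC1KO-labelled and -0.17 in WT cells, and the share of calls that were higher to 37.2%, 37.0% and 37.4%, against 51.3%, 48.9% and 50.3% with TMM, while 7, 8 and 8 members were called higher. That share was 43.1%, against 53.3%, for RB1CC1KO-labelled against ATG7KO cells in full medium. Correlations showed little sign that the replicate numbers pair the samples. Of 45 same-number pairs 5 correlated above 0.1 (range -0.132 to 0.221), and 6 of 18 samples correlated best with their own number. Weak correlations in groups of 3 do not show that pairing is absent. More genes were called in each comparison with the replicate block, 293 against 160 for the response of ATG7KO minus WT cells. With the replicate block, 7 members were called for the response of ATG7KO minus WT cells, with SPRY1 added (-1.05, adjusted p = 0.0372). The fed SPRY4 values rest on 2 to 9 reads a library in WT and RB1CC1KO-labelled cells, and ATG7KO EBSS replicate 3 was the shallowest library, so these values are the least precise.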
